A study of Sus scrofa with 6 samples.

Results

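The collagen and basement membrane genes of the pig were examined in neonatal pig Sertoli cells (NPSC) at baseline and after exposure to human serum. The genes were taken by symbol alone, as collagen chains (COL followed by a chain number), laminin chains (LAMA, LAMB and LAMC), the nidogens NID1 and NID2, and perlecan (HSPG2). Of the 25149 genes in the count tables, 42 carried such a symbol, and 40 of these had 10 or more counts over the 6 libraries, the lowest being COL8A1 with 183. COL2A1 and COL6A1, which lie on unplaced scaffolds GL893359.2 and GL896433.1 in the files, were listed at 0 counts in all 6 libraries. So were all 2451 genes on unplaced scaffolds, against 839 of the 22698 genes on chromosomes, and a 0 there gives no level. Symbols were at hand for 11804 of the genes only, and COL1A1, COL4A1, COL18A1, COL19A1, COL24A1, COL25A1, COL6A6, COL8A2, COL9A3, LAMA1, LAMA5 and LAMB4 were not matched to a symbol and are not analysed here.

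NPSC are the somatic cells that nurse germ cells inside the seminiferous tubule, isolated here with collagenase and trypsin from wild-type (WT) testes of Duroc-Landrace piglets a few days old, pooled by litter. All plates were grown in DMEM with 10% FBS. Baseline NPSC (3 libraries) received more medium, and complement NPSC (3 libraries) were held for 90 min in a 1:1 mix of medium and pooled human serum whose complement was preserved. Which litter each plate came from is not given, so the p-values below measure only the spread between these libraries, which may in part be technical.

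Collagens are triple helices of 3 chains. Fibrillar collagens form the fibres of connective tissue and cartilage, fibril-associated collagens sit on these fibres, and collagen IV forms the network of basement membranes, the thin sheets beneath epithelia. Laminins, each made of an alpha, a beta and a gamma chain, form a further network of that sheet, and nidogens and perlecan join the networks. In the testis, Sertoli cells rest on such a membrane and make it together with the peritubular myoid cells outside the tubule.

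Counts on genes came to 6796183 to 8371923 per baseline library and to 3641518 to 6403606 per complement library. A measure of counts with no link to matrix was taken from 48 genes for olfactory receptors, odour sensors of the nose, with 45945 bp of exon. Their density was 2.15, 1.20 and 1.18 at baseline and 4.01, 4.43 and 1.51 after complement, in CPM (counts scaled to the library total) per kilobase of exon, so complement replicates 1 and 2 stood apart from the other 4 libraries. It is an average, since these receptor genes had 16 to 193 counts each over the 6 libraries, apart from 1 on a scaffold. This density multiplied by exon length is called the expected background of a gene here. Of the 11 Sertoli cell markers matched, 5 were lower and 3 higher at an unadjusted p under 0.05 (against 4.28% and 10.9% of all genes) and 0 were called by edgeR or DESeq2, and their summed level was 5020 to 7728 CPM in baseline NPSC and 3315 to 3931 CPM in complement NPSC. CLDN11, the claudin of the tight junctions between Sertoli cells, had 545, 566 and 557 CPM at baseline and 388, 289.95 and 398 after complement. GATA4, WT1, INHA and FSHR were lower as well (LFC −0.76, −0.66, −0.73 and −0.60), while the 3 higher markers were DHH, KRT18 and TF (LFC 0.63, 0.61 and 0.94), with mean baseline levels of 10.95, 16.8 and 7.88 CPM. These markers are named after their values were seen. The part of these shifts in the values below was not tested. The myoid marker MYH11 and the Leydig cell marker CYP11A1 were listed at 0, and both lie on scaffolds.

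Reads of all 40 matrix genes were counted in every library, although COL6A5 in baseline replicate 1 and COL8A1 in complement replicates 1 and 2 had no more counts than the expected background. The 40 genes took 1.20%, 1.20% and 1.44% of all counts in the 3 baseline libraries and 1.35%, 1.22% and 1.68% in the 3 complement libraries. Because these are long genes, levels were compared between genes only as CPM per kilobase (kb) of exon, here and below by the TMM-normalized library size. The median exon length of the 40 genes was 4847 bp, from 914 bp (COL15A1) to 9817 bp (COL6A3), and 90.8% of all 17512 genes tested were shorter than that median. These lengths are those deposited with the counts, and whether they hold all exons of a gene was not checked. Both the levels per kilobase and the expected background rest on them. Over the 40 genes the rank correlation (Spearman) of exon length with counts was 0.39, against 0.61 over all genes tested, as a description across genes, which share their libraries. On the per-kilobase scale the mean baseline level ran from 1.68 (COL6A5) to 448 (COL3A1), with a median of 19.6 CPM per kilobase over the 40 genes.

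**Figure D1:**
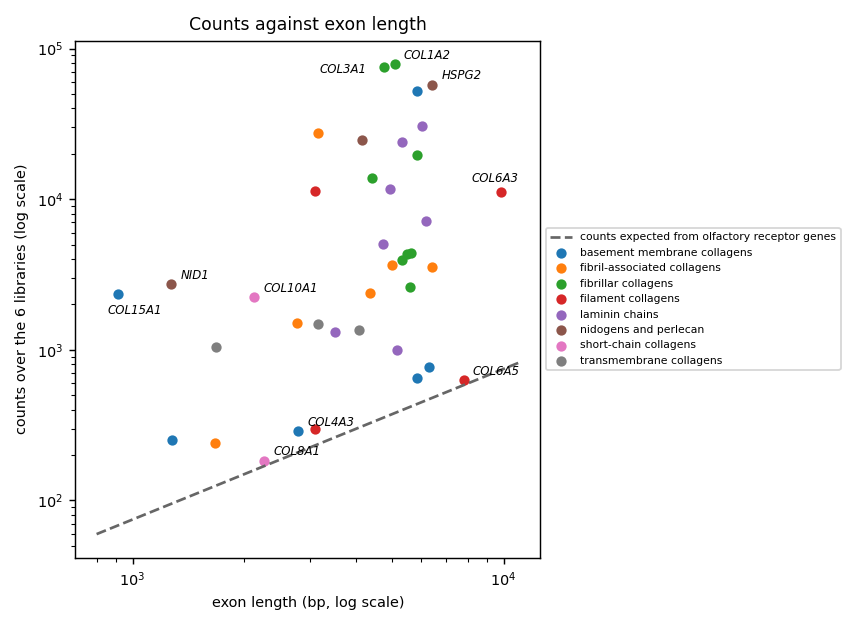
Counts summed over the 6 libraries (y axis, log scale) against summed exon length in bp (x axis, log scale) for 39 of the 40 genes, coloured by class, with the counts expected from the olfactory receptor density as a dashed line. COL1A2 and COL3A1 lie far above that line, and COL6A5 and COL8A1, whose expected background was 93.1% and 92.5% of their counts, lie on or near it.

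In order of mean baseline level per kilobase, the top genes were COL3A1 (448 ± 117), COL1A2 (338 ± 127), HSPG2 (270.3 ± 11.9), COL4A2 (261 ± 67.9) and COL12A1 (239 ± 16.7), as CPM per kilobase (SD, n = 3). The baseline ranges of these neighbours overlapped. Below them COL12A1 lay apart from NID2, LAMC1 from COL6A2, and NID1 from LAMC3, each with separate baseline ranges over the 3 libraries. At all other steps of the order the neighbours overlapped, so the exact rank of most genes is not set by 3 libraries. At the low end, 7 genes (COL21A1, COL4A6, COL4A4, COL28A1, COL8A1, COL4A3 and COL6A5) had an expected background of 51.9% to 93.1% of their counts. For a further 13 genes it was 10.1% to 38.9%, and for 20 genes it was 0.47% to 9.52%.

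**Figure D2:**
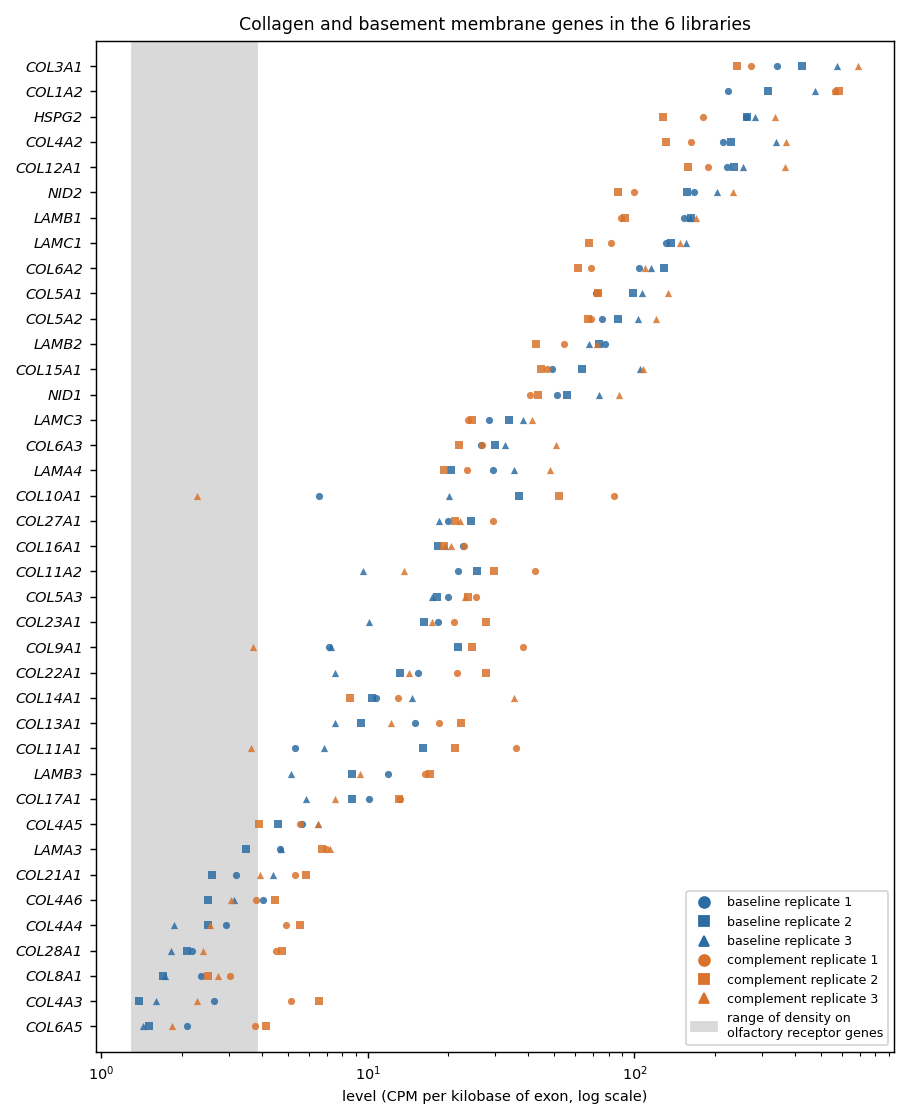
Level of 39 of the 40 genes in each library, in CPM per kilobase of exon on a log axis, ordered by mean baseline level, with baseline NPSC in blue, complement NPSC in orange and marker shape giving the replicate. Genes at the bottom lie in or close to the grey band of olfactory receptor density, with COL4A3 reaching 6.55 CPM per kilobase against 3.84 at the band's upper end, and in the upper rows complement replicates 1 and 2 are mostly left of the baseline libraries while complement replicate 3 is mostly right of them.

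No collagen or basement membrane gene was a DEG, that is, none had an adjusted p under 0.05 with a log2 fold change (LFC, complement over baseline NPSC) beyond 1 in edgeR's quasi-likelihood test. The number called was 0 of 40, against 18 of 17512 genes tested (0.103%), and the smallest adjusted p was 0.264, for LAMA3. At an unadjusted p under 0.05 there were 9 of 40 (22.5%), all higher in complement NPSC, against 15.2% of all genes (10.9% higher and 4.28% lower). The DESeq2 Wald test called 0 of 40 as well (0.247% of all genes called), with 9 higher (against 7.59%) and 2 lower (against 4.42%) at an unadjusted p under 0.05. The median LFC was 0.22 over the 40 genes and 0.02 over all genes, with 26 above 0 and 14 below. In bulk RNA, fewer cells of a type and less RNA per cell cannot be told apart.

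The conditions were parted by few of the genes. All 3 complement libraries lay above all 3 baseline libraries for 5 genes (COL1A2, COL5A3, LAMA3, COL28A1 and COL8A1; 12.5%, against 8.95% of all genes), and below them for 0 genes (against 8.13%). The complement libraries were split, for these genes as for all genes. Complement replicates 1 and 2 were both below every baseline library for 13 genes (32.5%, against 26.8% of all genes), and complement replicate 3 was above every baseline library for 10 of these 13 and within their range for 3. Both were above every baseline library for 18 genes (45%, against 30.2%). Complement replicate 3 on its own was above every baseline library for 20 genes, within their range for 17 and below for 3, where 23.2% of all genes were above and 21.3% below.

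The LFC went with the expected background. Among the 7 genes whose expected background was at least 50% of their counts the median LFC was 0.83 and 4 had an unadjusted p under 0.05, where all genes of that range had a median of 0.59 and 22.2% had such a p. Among the 13 genes between 10% and 50% the median was 0.67 and 5 had such a p (0.09 and 14% of all genes of that range). Among the 20 genes under 10% the median was −0.10, 13 lay below 0 and 0 had such a p (median −0.25 and 12.4% of all genes of that range). The rank correlation of the expected share with LFC was 0.68 over the 40 genes and 0.60 over all genes tested, given as a description, since the points share libraries. The expected background was next subtracted from all genes, and the filter and TMM were run anew. LFC of genes with little expected background moved in that fit as well. After the subtraction 38 of the 40 genes were tested and 0 were called (0.206% of all genes). Of these, 8 had an unadjusted p under 0.05, all higher (against 6.41%). Of these 8 genes, 6 were among the 9 above, and the other 2 were COL1A2 and COL5A3. The median LFC of those of the 9 that were tested was 1.00 after subtraction, against 0.81 for the 9 before it. The log2 olfactory receptor density was also fitted as a covariate, on all 40 genes. It was highest in complement replicates 1 and 2, so that fit could part it from the condition only in part. The fit gave another set, with 10 genes higher at an unadjusted p under 0.05 (against 3.57%) and 0 lower. LAMA3 was the 1 gene of the 9 among them, and the median LFC of the 9 was 0.15 there, so the corrections moved it in opposite directions. The other 9 of the 10 were COL12A1, COL14A1, COL15A1, COL1A2, COL3A1, COL5A1, COL5A2, COL6A3 and NID1.

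**Figure D3:**
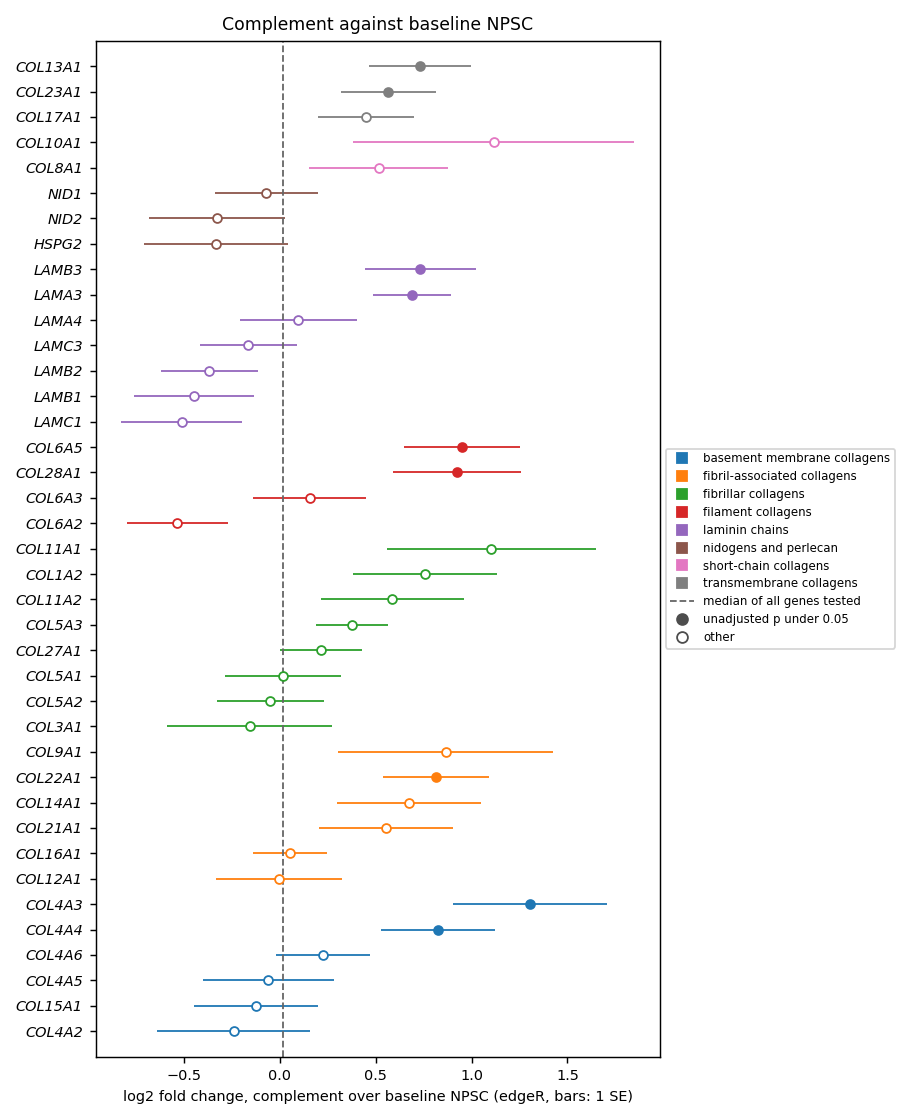
LFC of complement over baseline NPSC for 39 of the 40 genes with bars of 1 SE (edgeR, 3 libraries per condition), grouped by class, with filled points for an unadjusted p under 0.05 and a dashed line at the median of all genes tested. The 9 filled points all lie right of the line, the nidogens and perlecan lie left of 0, and the laminins lie on both sides of it.

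Fibrillar collagens took the most counts of any class in each library. COL1A2 (ENSSSCG00000015326, chromosome 9, 81357192 to 81393120), the alpha-2 chain of the main collagen of connective tissue, had a level of 224, 316 and 474 CPM per kb at baseline and 563, 585 and 564 after complement. The complement libraries were close to each other and all above the baseline libraries, which spread more among themselves. The LFC was 0.76, SE 0.37, adjusted p = 0.340. Expected background was 0.48% of its counts. After subtraction from all genes, with TMM run anew, the LFC was 1.07 (adjusted p = 0.318, edgeR). COL3A1 (ENSSSCG00000016034, chromosome 15, 104067018 to 104105776), which makes the thin fibres of soft tissues, had a level of 344, 425 and 575 CPM per kb at baseline and 273, 242 and 690.1 after complement. Complement replicates 1 and 2 were the lowest of all 6 libraries and complement replicate 3 the highest (LFC −0.16, SE 0.43, adjusted p = 0.849, but 0.62 with the olfactory receptor density as a covariate).

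The regulators of fibre diameter, the collagen V chains, were as follows. COL5A1 had a level of 71.5, 98.4 and 106 CPM per kb at baseline and 72.96, 72.9 and 134 after complement (LFC 0.02, SE 0.30, adjusted p = 0.979). COL5A2, which lies 17105 bp from COL3A1 on chromosome 15 on the opposite strand with 1 gene between them, had 75.6, 86.5 and 103 CPM per kb at baseline and 68.8, 66.9 and 120.2 after complement (LFC −0.05, SE 0.28, adjusted p = 0.933). Both chains had their highest level in complement replicate 3. The minor chain COL5A3 had 19.9, 18.2 and 17.5 CPM per kb at baseline and 25.4, 23.8 and 23.1 after complement, with all complement libraries above all baseline libraries over a narrow range (LFC 0.38, SE 0.19, adjusted p = 0.342; expected background 10.1% of counts). COL27A1, a fibrillar collagen of cartilage, had an LFC of 0.22, and 53 bp and 29 bp of its exons overlap those of WHRN and AKNA on the opposite strand.

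Of the collagens known from cartilage, COL10A1, COL11A1, COL9A1 and COL11A2 varied in another order. COL9A1 and COL11A2 were added to this group after their values were seen. COL27A1 did not share the order, with its highest library at 1.61 times its lowest and complement replicate 3 within the baseline range. The ranges of COL10A1, COL9A1 and COL11A1 were the widest of the 40 genes, with the highest library at 36.8, 10.3 and 9.83 times the lowest, against 1.26 times for COL16A1, the narrowest. COL10A1 (ENSSSCG00000004436, chromosome 1, 91882390 to 91889388), the collagen of hypertrophic cartilage, had 96, 508 and 327 counts at baseline and 804, 465 and 28 after complement, which is 6.53, 36.9 and 20.2 CPM per kb at baseline and 83.96, 52.05 and 2.28 after complement. The lowest library was a complement library and so were the highest ones, with complement replicate 3 below every baseline library. The LFC of 1.11, SE 0.73, adjusted p = 0.433 had the widest SE of the 40 genes. COL11A1 (ENSSSCG00000006857, chromosome 4, 127267390 to 127408467), a chain of the thin fibrils of cartilage, had 5.32, 16.04 and 6.82 CPM per kb at baseline and 35.8, 21.1 and 3.65 after complement (LFC 1.10, SE 0.55, adjusted p = 0.340). The fibril-associated COL9A1, which coats those fibrils, had 7.15, 21.9 and 7.26 CPM per kb at baseline and 38.1, 24.6 and 3.69 after complement (LFC 0.87, SE 0.56, adjusted p = 0.427). For all 3 genes complement replicate 3 was the lowest library, and baseline replicate 2 the highest baseline library. COL11A2, a partner chain of COL11A1, had 21.8, 25.7 and 9.57 CPM per kb at baseline and 42.3, 29.8 and 13.6 after complement (LFC 0.59, SE 0.37, adjusted p = 0.420), with complement replicate 3 within the baseline range. With the olfactory receptor density as a covariate all 4 LFC were below 0, at −1.66 (COL10A1), −0.63 (COL11A1), −0.88 (COL9A1) and −0.35 (COL11A2). The SE in that fit was 1.65, 0.96, 0.99 and 0.42, with adjusted p = 0.941, 0.975, 0.951 and 0.957 (edgeR), so the direction is not set. After subtraction the 4 LFC were 1.58, 1.56, 1.28 and 0.90. With 1 library left out the LFC of COL10A1, COL11A1 and COL9A1 ran from 0.38, 0.42 and 0.24 (without complement replicate 1) to 1.75, 1.71 and 1.59 (without baseline replicate 2), and that of COL11A2 from 0.21 (without complement replicate 1) to 0.90 (without complement replicate 3).

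Other genes known from cartilage and bone were set beside them, in a list that was chosen after these values were seen and so was not tested. Of 31 such genes, 22 were matched, 18 of these had complement replicates 1 and 2 above every baseline library (30.2% of all genes), and 9 were higher at an unadjusted p under 0.05 (10.9% of all genes) with 0 called by edgeR or DESeq2. Their summed level was 406, 629 and 546 CPM in baseline NPSC and 1356, 1292 and 325 CPM in complement NPSC. ACAN, the core protein of the main cartilage proteoglycan, had 80.4, 182 and 52.7 CPM at baseline and 301, 188 and 50.9 after complement. IBSP, a sialoprotein of bone, had 6.79, 31.3 and 50.6 CPM at baseline and 131, 147 and 4.33 after complement, and HAPLN1, the link protein of cartilage, had 11.998, 49.7 and 19.4 CPM at baseline and 107, 64.9 and 3.64 after complement. The defining cartilage collagen COL2A1 gives no value here, being on a scaffold. The part of cells of this kind in the values above was not tested.

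**Figure D4:**
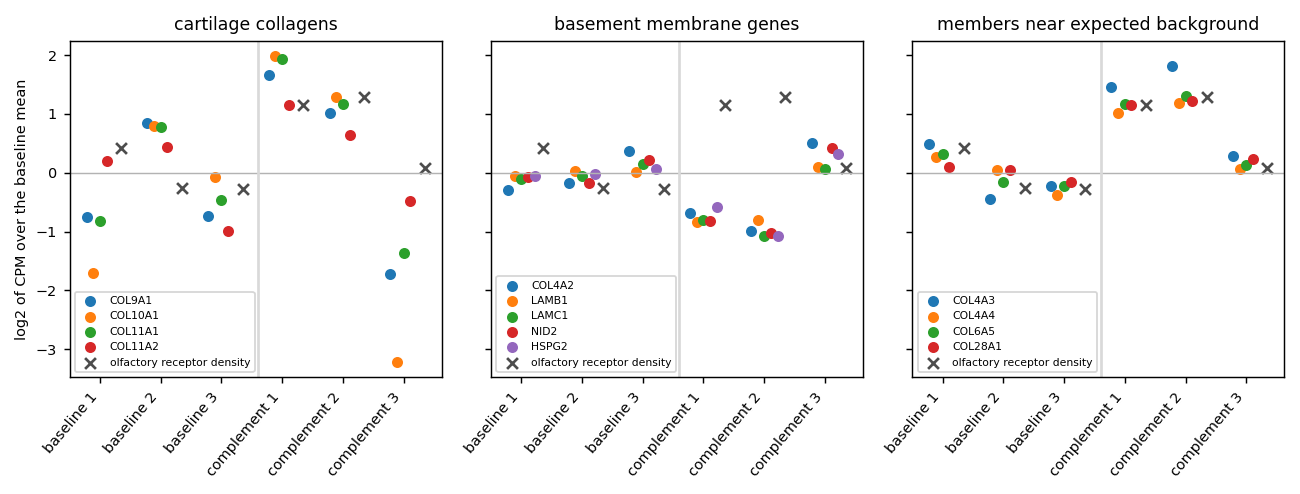
Panels of log2 of CPM over the mean baseline CPM (y axis) in each of the 6 libraries (x axis) for cartilage collagens other than COL27A1, for abundant basement membrane genes and for genes near the expected background, with the olfactory receptor density as crosses. Complement replicates 1 and 2 lie above 0 in the first and last panels and below 0 in the middle one, and COL10A1 is lowest in complement replicate 3.

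The basement membrane collagens held an abundant and a scarce set. COL4A2 (ENSSSCG00000009545, chromosome 11, 84613773 to 84675898), one of the chains of the collagen IV of nearly all basement membranes, had 214, 230.2 and 339 CPM per kb at baseline and 163, 131 and 369 after complement, with complement replicates 1 and 2 lowest and complement replicate 3 highest (LFC −0.24, SE 0.40, adjusted p = 0.743). COL15A1, a collagen at the outer face of basement membranes, had 49.2, 63.7 and 105 CPM per kb at baseline and 46.9, 44.5 and 108 after complement (LFC −0.12, SE 0.32, adjusted p = 0.842). Complement replicates 1 and 2 were again the lowest and complement replicate 3 the highest, although baseline replicate 3 was close to it. With the olfactory receptor density as a covariate the LFC was 0.46 for COL4A2 and 0.68 for COL15A1, and after subtraction −0.050 and 0.056. COL4A5 and COL4A6, both on chromosome X, had low levels. COL4A5 had 5.66, 4.60 and 6.49 CPM per kb at baseline and 5.57, 3.91 and 6.52 after complement (LFC −0.06, SE 0.34, adjusted p = 0.933), and COL4A6 had 4.03, 2.51 and 3.14 CPM per kb at baseline and 3.82, 4.47 and 3.06 after complement (LFC 0.23, SE 0.25, adjusted p = 0.614), with an expected background of 37.8% and 61.4% of their counts.

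COL4A3 and COL4A4, chains of the specialised collagen IV of the kidney filter, lie head to head on chromosome 15 with 123221 bp and no gene between them in the files. COL4A3 (ENSSSCG00000016245, chromosome 15, 142504568 to 142537037) had 51, 25 and 34 counts at baseline and 65, 77 and 37 after complement, or 2.64, 1.38 and 1.60 CPM per kb at baseline and 5.16, 6.55 and 2.29 after complement. Its LFC was the highest of the 40 genes, at 1.30, SE 0.40, adjusted p = 0.267, and complement replicates 1 and 2 were above every baseline library while complement replicate 3 was within their range. COL4A4 (ENSSSCG00000016244, chromosome 15, 142283364 to 142381346) had 2.93, 2.52 and 1.87 CPM per kb at baseline and 4.91, 5.55 and 2.56 after complement, with the libraries in the same relation (LFC 0.83, SE 0.30, adjusted p = 0.276). Both had an unadjusted p under 0.05, with an expected background of 72.2% (COL4A3) and 67.3% (COL4A4) of their counts. With the olfactory receptor density as a covariate the LFC was 0.27 for COL4A3 and 0.10 for COL4A4 (adjusted p = 0.957 and 0.989, edgeR), and after subtraction it was 2.84 and 0.97 (adjusted p = 0.472 and 0.524).

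Among the laminin chains, those of the common laminins were lower in complement replicates 1 and 2. LAMB1 (ENSSSCG00000015444, chromosome 9, 118439608 to 118514521) had 154, 162 and 162 CPM per kb at baseline and 88.98, 91.8 and 169.8 after complement (LFC −0.45, SE 0.31, adjusted p = 0.457). LAMC1 (ENSSSCG00000015555, chromosome 9, 136548464 to 136668804), the gamma chain that most laminins share, had 131, 137 and 157 CPM per kb at baseline and 81.5, 67.3 and 149 after complement (LFC −0.51, SE 0.31, adjusted p = 0.412). LAMB2, the beta chain of mature vascular and neuromuscular membranes, had 77.8, 73.6 and 67.3 CPM per kb at baseline and 54.2, 42.6 and 72.6 after complement (LFC −0.37, SE 0.25, adjusted p = 0.449). For all 3 chains complement replicates 1 and 2 were below every baseline library and complement replicate 3 was within or just above the baseline range. LAMC3 had 28.3, 33.9 and 38.04 CPM per kb at baseline and 23.6, 24.6 and 41.2 after complement (LFC −0.16, SE 0.25, adjusted p = 0.722), with the same libraries low and complement replicate 3 highest. LAMA4, an alpha chain of vascular and muscle membranes, had 29.4, 20.5 and 35.3 CPM per kb at baseline and 23.6, 19.3 and 48.1 after complement, also highest in complement replicate 3 (LFC 0.10, SE 0.31, adjusted p = 0.870). With the olfactory receptor density as a covariate the LFC was −0.021 for LAMB1, −0.011 for LAMC1, −0.13 for LAMB2, 0.31 for LAMC3 and 0.57 for LAMA4. After subtraction of the expected background it was −0.24, −0.32, −0.18, −0.010 and 0.22.

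LAMA3 and LAMB3, laminin chains known from skin, had low levels. LAMA3 (ENSSSCG00000003709, chromosome 6, 101420993 to 101498019) had 4.69, 3.49 and 4.72 CPM per kb at baseline and 6.95, 6.71 and 7.20 after complement. All 3 complement libraries were above all 3 baseline libraries, complement replicate 3 included, and LAMA3 had the smallest p of the 40 genes (LFC 0.69, SE 0.20, adjusted p = 0.264; expected background 38.9% of counts). LAMB3 had 11.9, 8.68 and 5.14 CPM per kb at baseline and 16.4, 17.1 and 9.30 after complement, with complement replicate 3 within the baseline range (LFC 0.73, SE 0.29, adjusted p = 0.292). Expected background was 19.8% of the counts of LAMB3. With the olfactory receptor density as a covariate the LFC was 0.68 for LAMA3 and 0.036 for LAMB3 (adjusted p = 0.512 and 0.996, edgeR), and after subtraction it was 0.77 and 1.00 (adjusted p = 0.474 and 0.486).

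The linkers of the membrane were lowest in complement replicates 1 and 2, as LAMB1 was. HSPG2 (ENSSSCG00000003514, chromosome 6, 73920982 to 73947323), the heparan sulphate proteoglycan perlecan, had 262, 265 and 284 CPM per kb at baseline and 181, 128 and 336 after complement (LFC −0.33, SE 0.37, adjusted p = 0.625). NID2 had 167, 157 and 205 CPM per kb at baseline and 99.5, 86.9 and 235 after complement (LFC −0.33, SE 0.35, adjusted p = 0.612), and NID1, the better known of the nidogens, had 51.4, 55.9 and 73.6 CPM per kb at baseline and 40.5, 43.6 and 87.8 after complement (LFC −0.07, SE 0.27, adjusted p = 0.897). All 3 had complement replicates 1 and 2 below and complement replicate 3 above every baseline library. The 3 fitted LFC were below 0, but that of NID1 turned to 0.02 with upper-quartile normalization, and those of all 3 were above 0 with the olfactory receptor density as a covariate (HSPG2 0.18, NID2 0.26 and NID1 0.50). After subtraction they were −0.14 (HSPG2), −0.15 (NID2) and 0.11 (NID1). The peritubular myoid cell markers, of which 6 of 7 were matched, had summed levels of 2645, 2774 and 3921 CPM in baseline NPSC and 2116, 2086 and 3850 CPM in complement NPSC, with 0 of 5 tested at an unadjusted p under 0.05. Their part in the levels of the membrane genes was not tested.

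Collagen VI forms beaded filaments next to the basement membrane. COL6A2 (ENSSSCG00000028022, chromosome 13, 218600762 to 218615843) had 104, 129 and 115 CPM per kb at baseline and 68.7, 61.4 and 109.9 after complement, with the lowest LFC of the 40 genes (−0.53, SE 0.26, adjusted p = 0.339). COL6A3, with the greatest deposited exon length of the genes, had 26.6, 29.95 and 32.6 CPM per kb at baseline and 26.7, 21.9 and 50.6 after complement (LFC 0.16, SE 0.29, adjusted p = 0.777). The former had no complement library above the baseline range, and the latter had its highest level in complement replicate 3. COL6A5 had 113, 76 and 85 counts at baseline and 133, 136 and 83 after complement, or 2.09, 1.504 and 1.43 CPM per kb at baseline and 3.78, 4.15 and 1.84 after complement (LFC 0.95, SE 0.30, adjusted p = 0.267), at an unadjusted p under 0.05 with an expected background of 93.1% of its counts. COL28A1, a related filament collagen, had 2.19, 2.09 and 1.82 CPM per kb at baseline and 4.51, 4.75 and 2.40 after complement, with all complement libraries above all baseline libraries (LFC 0.92, SE 0.33, adjusted p = 0.277; expected background 77.2% of counts). With the olfactory receptor density as a covariate the LFC was −0.10 for COL6A2, 0.70 for COL6A3, 0.15 for COL6A5 and 0.32 for COL28A1. After subtraction it was −0.33 for COL6A2, 0.30 for COL6A3 and 1.30 for COL28A1, while COL6A5 and COL8A1 no longer passed the filter on low counts.

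Of the fibril-associated collagens, COL12A1 (ENSSSCG00000004484, chromosome 1, 101726688 to 101890065), found in dense connective tissue, had 223, 237 and 256 CPM per kb at baseline and 189, 159 and 367 after complement, lowest in complement replicates 1 and 2 and highest in complement replicate 3, so that the group means were nearly equal (LFC −0.0034, SE 0.33, adjusted p = 0.996). COL22A1, known from tissue junctions such as that of muscle and tendon, had 15.4, 13.2 and 7.52 CPM per kb at baseline and 21.6, 27.7 and 14.2 after complement (LFC 0.81, SE 0.27, adjusted p = 0.270), with complement replicates 1 and 2 above every baseline library, and an LFC of 0.19 with the olfactory receptor density as a covariate and 1.12 after subtraction. COL14A1 had 10.7, 10.3 and 14.7 CPM per kb at baseline and 13.01, 8.57 and 35.3 after complement, with complement replicate 3 far above the other 5 libraries (LFC 0.67, SE 0.37, adjusted p = 0.379). With olfactory receptor density as a covariate COL14A1 was the 1 gene called (LFC 1.41, adjusted p = 0.037, edgeR; 0.331% of all genes), and without complement replicate 3 its LFC was −0.17. COL16A1 and COL21A1 had LFC of 0.05 and 0.55.

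The transmembrane collagens are proteins of the cell surface. COL13A1 had 15.01, 9.38 and 7.53 CPM per kb at baseline and 18.5, 22.4 and 12.2 after complement (LFC 0.73, SE 0.27, adjusted p = 0.281), and COL23A1 had 18.3, 16.2 and 10.1 CPM per kb at baseline and 21.04, 27.7 and 17.5 after complement (LFC 0.57, SE 0.25, adjusted p = 0.312). In both genes complement replicates 1 and 2 were above every baseline library, complement replicate 3 was within their range, and baseline replicate 3 was the lowest library. Both had an unadjusted p under 0.05, and with the olfactory receptor density as a covariate their LFC was 0.079 (COL13A1) and 0.15 (COL23A1), against 1.00 and 0.83 after subtraction. COL17A1, of the anchoring complexes of skin, had an LFC of 0.45. Expected background made up 12.05% to 22.7% of their counts in the 3 genes. COL8A1, a short-chain collagen of blood vessels, had 24 to 37 counts per library and an LFC of 0.52, with an expected background of 92.5%.

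Ratios between chains that share a fibre, filament or membrane were then formed within each library, where scaling to library size cancels. The pairs were picked with the levels in view, so no test is given. The ratio of LAMB1 to LAMC1 per kilobase was 1.13 ± 0.087 (SD, n = 3) in baseline NPSC and 1.20 ± 0.144 in complement NPSC, and that of COL5A1 to COL5A2 was 1.04 ± 0.095 and 1.09 ± 0.027, so that the levels of each pair stayed within a ratio of 0.95 to 1.36 in every library. The ratio of COL6A2 to COL6A3 was 3.90, 4.30 and 3.54 at baseline and 2.57, 2.80 and 2.17 after complement. These ranges did not overlap, nor did they after subtraction of the expected background (4.15, 4.46 and 3.64 at baseline and 2.81, 3.19 and 2.21 after complement). COL1A2 to COL3A1 gave 0.65, 0.74 and 0.82 at baseline and 2.06, 2.42 and 0.82 after complement, so complement replicates 1 and 2 held more COL1A2 than COL3A1 and the other 4 libraries less. LAMC1 to LAMC3 gave 4.61, 4.03 and 4.12 at baseline and 3.45, 2.73 and 3.61 after complement, again without overlap of the conditions. Of the 8 ratios formed, these 2 did not overlap between conditions, against 16.4% of all pairs of genes tested. The 3 others, LAMB2 to LAMC1 (0.52 ± 0.084 and 0.60 ± 0.094), COL3A1 to COL5A2 (5.02 ± 0.53 and 4.44 ± 1.14) and COL4A2 to NID2 (1.47 ± 0.187 and 1.57 ± 0.065), overlapped.

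**Figure D5:**
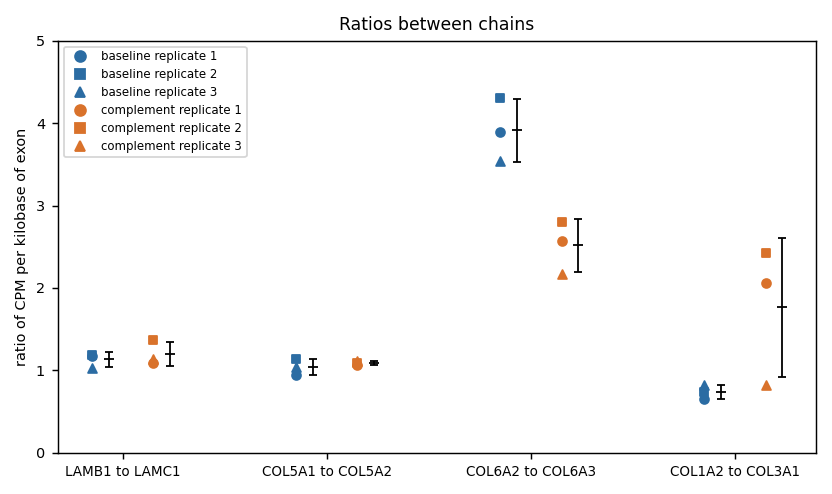
Ratio of CPM per kilobase of exon between 4 pairs of chains (y axis) in each library, baseline NPSC in blue and complement NPSC in orange, with the mean and SD of each condition in black. The LAMB1 to LAMC1 and COL5A1 to COL5A2 ratios stay near 1, the COL6A2 to COL6A3 ratio is 3.54 to 4.30 in baseline NPSC and 2.17 to 2.80 in complement NPSC, and COL1A2 to COL3A1 exceeds 2 in complement replicates 1 and 2 only.

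Genes that modify, join, bind or cut collagens and laminins were read from the same fit. Of 116 listed genes 87 were matched and 85 tested, 0 were called by edgeR or DESeq2, and 10 were higher and 6 lower at an unadjusted p under 0.05 (against 10.9% and 4.28% of all genes), with a median LFC of −0.10. None of the 13 tested genes of collagen processing had such a p (median LFC −0.14), and PLOD3, on a scaffold, was listed at 0. P3H1, a prolyl hydroxylase of procollagen, had 187, 172 and 168 CPM at baseline and 128, 108 and 162 after complement, with all complement libraries below all baseline libraries (LFC −0.41, SE 0.22, adjusted p = 0.359). PLOD2 and FKBP10, a lysyl hydroxylase and a chaperone of procollagen, had LFC of −0.16 and −0.43. Of the 14 genes of procollagen cleavage and crosslinking, 2 were higher at such a p (against 10.9%; median LFC 0.09). The crosslinking oxidase LOX had an LFC of −0.48, its relative LOXL4 −0.41, and the procollagen protease BMP1 0.03.

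Of the 15 tested receptors, 2 were higher at an unadjusted p under 0.05 (against 10.9% of all genes; median LFC −0.20), a share near that of all genes. These were ITGA10 (40.8, 41.5 and 29.95 CPM at baseline and 71.7, 80.9 and 37.9 after complement; LFC 0.76, SE 0.25, adjusted p = 0.269) and ITGA11 (49.002, 43.8 and 39.7 CPM at baseline and 63.7, 56.8 and 58.03 after complement; LFC 0.43, SE 0.18, adjusted p = 0.306), the alpha subunits of collagen-binding integrins, named after their values were seen. ITGB1, the beta subunit they pair with, had 1192, 1483 and 1463 CPM at baseline and 855, 923 and 1634 after complement (LFC −0.28, SE 0.34, adjusted p = 0.647). The collagen receptor kinase DDR1 had 286, 229.98 and 231 CPM at baseline and 204, 147 and 184 after complement, all complement libraries being below all baseline libraries (LFC −0.48, SE 0.23, adjusted p = 0.329), and the syndecan SDC2 had an LFC of −0.38. Of 22 other matrix-assembly genes, 2 were higher and 2 lower (against 10.9% and 4.28%; median LFC −0.14). FN1, fibronectin, had 2927, 2780.3 and 3824 CPM at baseline and 2266, 1988 and 6219.5 after complement, with complement replicate 3 far above the rest (LFC 0.14, SE 0.47, adjusted p = 0.884), while SPARC and TINAGL1 had LFC of −0.35 and −0.52.

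Of 21 matrix-degrading enzymes and inhibitors, 4 were higher and 4 lower at an unadjusted p under 0.05 (against 10.9% and 4.28% of all genes; median LFC −0.08). CTSB, a lysosomal protease, had 485, 482 and 702 CPM at baseline and 311, 278 and 482 after complement (LFC −0.64, SE 0.29, adjusted p = 0.314), and MMP2 and TIMP1, a gelatinase and an inhibitor of such enzymes, had LFC of −0.08 and 0.11. MMP13, the collagenase of cartilage, also among the cartilage and bone genes listed above, had the highest LFC of these lists and is named after its values were seen. It had 6.07, 23.6 and 50.7 CPM at baseline and 122, 156 and 3.29 after complement, so complement replicate 3 was the lowest library as for COL10A1 (LFC 1.79, SE 0.80, adjusted p = 0.314). ADAMTS4, which cuts cartilage proteoglycan, had 92.2, 48.6 and 56.9 CPM at baseline and 112, 103 and 199 after complement and was named in the same way (LFC 1.07, SE 0.28, adjusted p = 0.260). Here all complement libraries were above all baseline libraries and complement replicate 3 was the highest.

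The calls turned on single libraries. Without complement replicate 3, 7 of the 40 genes were called, all higher (17.5%, against 5.43% of all genes): COL10A1, COL11A1, COL22A1, COL28A1, COL4A3, COL4A4 and COL6A5, with LFC of 1.01 to 1.65. For COL28A1, COL4A3, COL4A4 and COL6A5 the expected background was 67.3% to 93.1% of counts. Both complement libraries left had a higher olfactory receptor density than every baseline library, and its part in these calls was not tested. In that fit 13 of the 40 genes had an adjusted p under 0.05 (against 10.1% of all genes). Besides the 7 called, COL13A1 was higher (LFC 0.92, adjusted p = 0.0473), and NID2, LAMC1, COL6A2, LAMB1 and HSPG2 were lower, with LFC of −0.95, −0.95, −0.86, −0.85 and −0.84, all short of the size for a call. At an unadjusted p under 0.05 there were 16 higher and 12 lower (against 21.4% and 17.8% of all genes). Without baseline replicate 1, COL13A1 and LAMB3 were called (LFC 1.05 and 1.04; adjusted p = 0.0377 and 0.0476, edgeR; 1.42% of all genes called higher). Without complement replicate 2, the number at an unadjusted p under 0.05 was 2 in place of 9 (5.39% of all genes). With the replicate number as a block, COL4A3 was the 1 gene called (4.16% of all genes). With the block 17 genes were higher and 3 lower at an unadjusted p under 0.05 (against 20% and 11.1% of all genes), and 13 had an adjusted p under 0.05, all higher (against 14.3%), COL22A1, LAMB3 and LAMA3 among them (LFC 0.83, 0.76 and 0.70; adjusted p = 0.000144, 0.000406 and 0.00226, edgeR).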

How the data were processed

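Bulk RNA sequencing measured 3 baseline NPSC and 3 complement NPSC libraries. The authors deposited raw counts per gene, not normalized, with the summed exon length of each gene, and the submitters' processing notes name Trimmomatic 0.36, STAR 2.5.2b, featureCounts and Subread 1.5.2, without their order or settings. The genome build and the strand setting are not given in the sources used here, and coordinates are those of the files. Since the use of strand in counting is not given, reads of COL27A1 cannot be told apart from those of the overlapping exons of WHRN and AKNA.

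Counts were filtered with filterByExpr, normalized by TMM and tested with the quasi-likelihood F-test of edgeR 4.0.16 in R 4.3.3, with Benjamini-Hochberg adjustment over the 17512 genes tested. A gene was called a DEG at an adjusted p under 0.05 with an LFC beyond 1 in size. DESeq2 1.42.0 (Wald test) was an alternative, with other normalizations and filters, a replicate block, each library left out in turn, subtraction of the expected background, and the log2 olfactory receptor density as a covariate. For the fit after subtraction, the expected background was taken from every gene and the filter and TMM were run anew on the reduced counts. An LFC could thus also move for a gene with little expected background. Library totals ranged from 3641518 to 8371923, and counting error limits genes with few counts. Levels are CPM per kilobase of exon. The 6 libraries were checked for repeats, and every pair within a condition differed by more than counting error. The procedure was tested on simulated data. For the share of all pairs of genes whose ratio did not overlap, a count of 0 was set to 0.5. Plots were made in Python 3.11.15 (matplotlib 3.10.9).

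Of the 40 genes, values per library are given for chains of collagen I, III, IV, V, VI and XV, laminins, nidogens and perlecan, for the 5 highest levels, the 5 highest and 5 lowest LFC and every unadjusted p under 0.05. From each of 5 pathway lists the 3 genes with the highest baseline level per kilobase are given. The single values of 1 of the 40 genes are not reported here. Values of COL9A1, COL11A2 and COL14A1 were added after they were seen. The genes and lists, including 7 lists of testis cell markers, were chosen with earlier results of these data known.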

Additional observations from a re-analysis of the deposited data

How the results depend on the processing

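Of the 54 genes followed here (39 of the 40 collagen and basement membrane genes and 15 of their pathway), 26 kept the sign of their LFC and 28 changed it under at least 1 of 14 alternatives. The number of the 40 genes called stayed at 0 with DESeq2 size factors, upper-quartile normalization, the DESeq2 Wald test, both other filters and subtraction of the expected background, and was 1 with the olfactory receptor density as a covariate (COL14A1). The range when each library was left out in turn was 0 to 7 called, the highest without complement replicate 3, 2 to 28 at an unadjusted p under 0.05 (lowest without complement replicate 2, highest without complement replicate 3), 0 to 5 pathway genes called, and 0.15 to 0.32 for the median LFC. The 5 pathway genes, of 85 tested, were called without complement replicate 3, where 5.76% of all genes were called, a share near that of the pathway genes. That median was 0.34 with upper-quartile normalization (a setting that shifted the median over all genes by 0.11) and 0.16 with the DESeq2 Wald test. The median baseline level of the 40 genes was 19.6 CPM per kilobase, and moved by less than its spread over libraries to 18.00 after subtraction of the expected background and 18.6 with scaling to the library total. For the calls that came with a library left out, the block or the covariate, the cause was not tested. Libraries of fewer counts limit the scarce genes most, with 21 to 63 counts of COL4A5 per library.

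The replicate number in the titles was also used as a replicate block. It pairs the libraries only by number, and the deviations of same-numbered libraries correlated at 0.46, 0.03 and 0.48 over genes, with complement replicate 2 closer to baseline replicate 1 (0.28) than to its own number. With the block 1 of the 40 genes (COL4A3) and 4 of the 85 pathway genes tested were called, against 4.16% of all genes. Of the 40, 20 had an unadjusted p under 0.05 (17 higher and 3 lower, against 20% and 11.1% of all genes), and 13 had an adjusted p under 0.05 (against 14.3%). The LFC changed sign to −0.022 for COL5A1, −0.010 for BMP1 and −0.054 for FN1.

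Other LFC that changed sign were, with the olfactory receptor density as a covariate, −1.66 for COL10A1, −0.63 for COL11A1, −0.35 for COL11A2, 0.52 for COL12A1, 0.68 for COL15A1, −0.041 for COL16A1, −0.14 for COL17A1, 0.62 for COL3A1, 0.46 for COL4A2, 0.16 for COL4A5, −0.17 for COL4A6, 0.44 for COL5A2, −0.88 for COL9A1, 0.18 for HSPG2, 0.31 for LAMC3, 0.50 for NID1, 0.26 for NID2, 0.22 for ITGB1, 0.33 for MMP2, 0.19 for PLOD2 and 0.013 for SDC2. After subtraction of the expected background they were 0.20 for COL12A1, 0.056 for COL15A1, 0.035 for COL3A1, −0.87 for COL4A6, 0.16 for COL5A2, 0.11 for NID1, 0.13 for MMP2 and 0.059 for PLOD2. With upper-quartile normalization they were 0.082 for COL12A1, 0.040 for COL4A5, 0.048 for COL5A2, 0.023 for NID1 and 0.014 for MMP2. The DESeq2 Wald test gave −0.0052 for COL16A1, −0.031 for COL5A1 and −0.026 for BMP1. Without a filter beyond 1 count the LFC was −0.019 for COL5A1 and −0.013 for BMP1, and with at least 10 counts in every library 0.022 for COL12A1. When each library was left out in turn, the LFC ranged as follows for the genes whose sign changed: COL12A1 −0.49 to 0.20, COL14A1 −0.17 to 1.00, COL15A1 −0.70 to 0.23, COL16A1 −0.028 to 0.13, COL3A1 −0.83 to 0.085, COL4A2 −0.86 to 0.0074, COL4A5 −0.26 to 0.097, COL5A1 −0.37 to 0.17, COL5A2 −0.41 to 0.082, COL6A3 −0.32 to 0.36, LAMA4 −0.43 to 0.32, NID1 −0.55 to 0.12, BMP1 −0.26 to 0.15, FN1 −0.61 to 0.40, MMP2 −0.41 to 0.063 and TIMP1 −0.25 to 0.31.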

Other observations

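Markers of other testis cells were read from the same fit, and 0 were called by edgeR or DESeq2. Over all genes tested, 10.9% were higher and 4.28% lower at an unadjusted p under 0.05. The 5 Leydig cell markers matched were 1182, 996 and 1112 CPM in sum in baseline NPSC and 746, 744 and 787 CPM in complement NPSC, with all complement libraries below all baseline libraries and 2 of 4 tested genes lower at an unadjusted p under 0.05 (CYP17A1 and HSD17B3, enzymes of steroid synthesis, LFC −0.51 and −0.76). The 4 fibroblast markers came to 354 to 582 CPM in baseline NPSC and 333, 321 and 627 CPM in complement NPSC, and 1 was higher at such a p (PI16, LFC 1.26). The 4 endothelial cell markers came to 414 to 611 CPM in baseline NPSC and 306 to 681 CPM in complement NPSC with 0 at such a p. The 5 macrophage markers came to 104 to 125 CPM in baseline NPSC and to 140, 138 and 86.6 CPM in complement NPSC, with ITGAM higher and CSF1R lower at such a p (LFC 0.56 and −0.75). The 5 germ cell markers came to 229 to 374 CPM in baseline NPSC and 173 to 318 CPM in complement NPSC with 0 at such a p. Their part in the levels of the collagen and basement membrane genes was not tested. Genes of these lists are named here after their values were seen.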
